A study of Drosophila melanogaster with 12 samples.

Results

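Neural cell adhesion genes encode proteins of the cell surface that hold neighbouring cells or axons together, often by binding a copy of themselves on the next cell. The genes described here are Fas1, Nrt, Fas2, Fas3, Nrg, Con, CadN, shg, Ten-m and kirre. They were chosen by name as adhesion genes known from the fly nervous system, and every probe set annotated to them was used. The choice was made with earlier results of these data known, so counts of members beside all probe sets are a description only. Of the 10 genes, 9 had a probe set of their own here, with 12 probe sets among them out of 18769 on the array, and Fas3 was not analysed here. Testing was limited to probe sets at log2 4 or above on 2 or more of the 12 arrays, which left 9 probe sets of 8 genes, out of 7350 in all.

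RNA was measured in ML-DmBG3 (BG3) cells, a Drosophila line of central nervous system origin, after RNA interference (RNAi). Double-stranded RNA (dsRNA) was directed at Rad21, which closes the cohesin ring, or at Nipped-B, the protein that loads cohesin onto chromosomes. Each treatment, mock included, had 4 Affymetrix arrays: replicates 1 and 2 from day 3, replicate 3 from day 4 and replicate 4 from day 6. Rad21 and Nipped-B cells had received 40 µg of dsRNA where harvested at day 3 and 10 µg where harvested at days 4 and 6, so amount and time cannot be told apart, and each target was attacked with a mixture of dsRNAs against different stretches of it. Mock cells received 0 µg of dsRNA, so no array shows what a control dsRNA would do. Values are log2 expression as computed by the authors with GCRMA, on which probe sets without signal lie near 2.5, and all arrays had close medians, 9.33 to 9.41 over the tested probe sets. No probe set used here measures the knockdown of either target.

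The proteins fall into a few families. Fas2, Fas3, Nrg and kirre have immunoglobulin domains, CadN and shg are classical cadherins that need calcium, Con has leucine-rich repeats, Ten-m is a teneurin, Nrt carries a domain that resembles cholinesterase, and Fas1 is built of fasciclin domains and held to the membrane by a lipid anchor. In the fly nervous system these proteins are known for bundling axons, guiding growth cones and matching synaptic partners. BG3 cells carried little of the RNA that marks mature neurons. Of 10 neuron markers with a probe set, 8 were under log2 4 on every array, nSyb, brp and Syn among them. The pan-neuronal RNA-binding protein gene elav averaged 8.94 in Rad21 cells, 8.76 in Nipped-B cells and 8.38 in mock cells. Its differences from mock did not pass, at 0.56 ± 0.33 with Rad21 RNAi and 0.38 ± 0.33 with Nipped-B RNAi (log2, SE, limma adjusted p = 0.20 and 0.40). Of 8 neuroblast markers 6 were likewise under log2 4 on every array. In a bulk RNA sample, a change in the share of cells of one type and a change in RNA per cell cannot be told apart.

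Fas1, Nrt and CadN rose with both knockdowns, by 1.67 to 2.13-fold on average, and were the members that rose most. Ten-m rose by a smaller amount with both, Fas2 passed the test with Rad21 RNAi alone, and shg fell with Nipped-B RNAi. Nrg and kirre did not pass in either comparison. With Rad21 RNAi, 5 of the 9 member probe sets rose and 0 fell, beside 27.3% of all tested probe sets that rose and 24.1% that fell. With Nipped-B RNAi 4 rose and 1 fell, beside 24.4% and 19.9% of all. The median log2 difference of the 9 probe sets from mock was 0.42 with Rad21 RNAi and 0.26 with Nipped-B RNAi, against 0.04 and 0.05 over all tested probe sets. Both comparisons use the same 4 mock arrays, so they are not independent of each other.

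**Figure D1:**
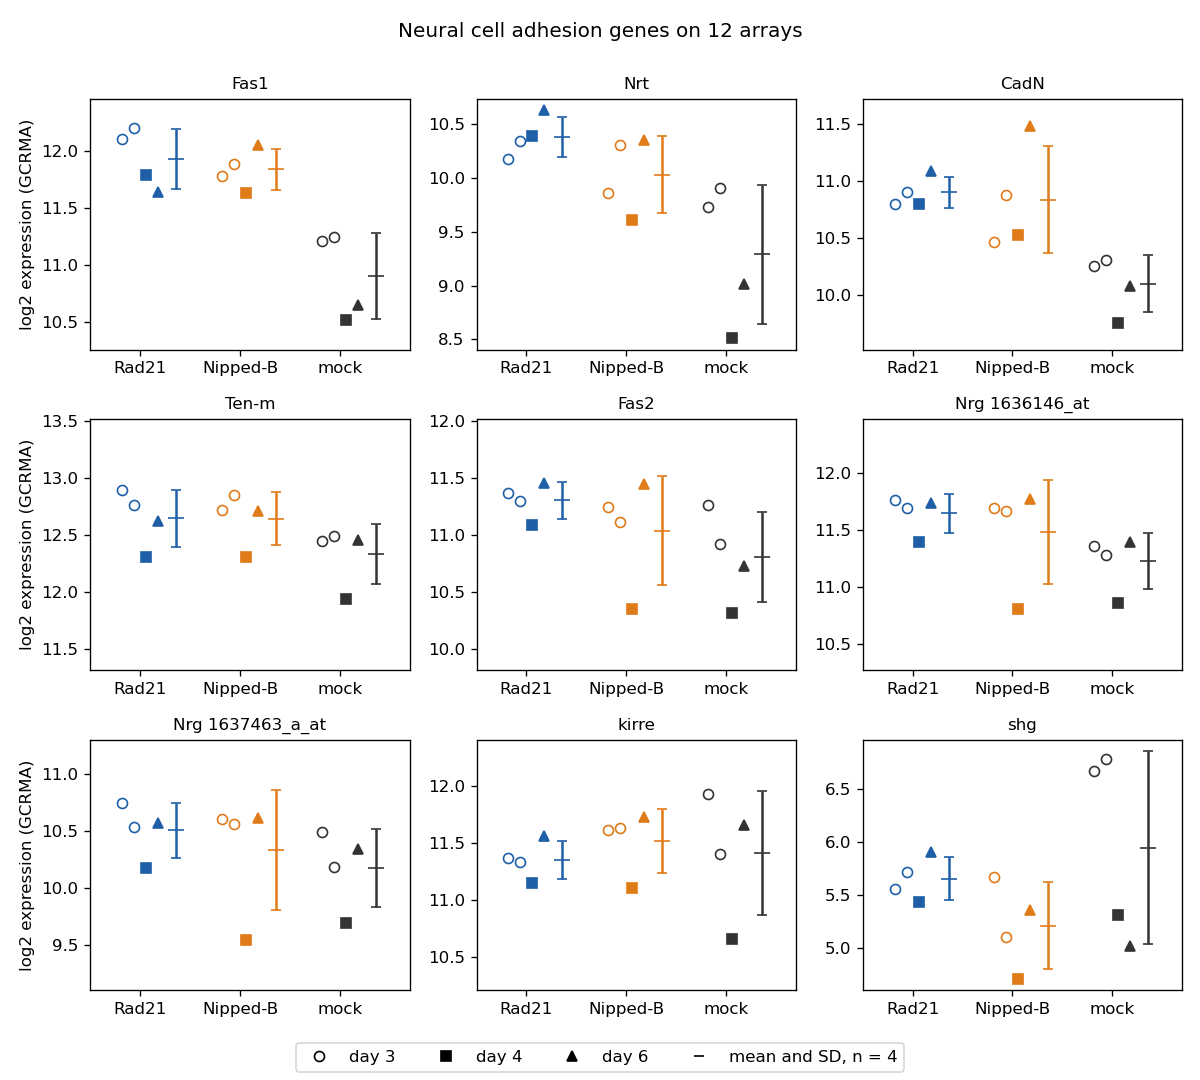
Log2 expression (GCRMA) of the 9 tested member probe sets on the 12 arrays, with Rad21, Nipped-B and mock RNAi from left to right in each panel, symbols for the day of harvest and bars for the mean and SD of 4 arrays. Every Rad21 and Nipped-B array lies above every mock array for Fas1 and CadN, and the shg panel shows mock arrays at 6.67 and 6.79 at day 3 and at 5.32 and 5.02 later.

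Fas1, which marks a subset of axon bundles in the embryo, gave the firmest difference. On the Rad21 arrays it was at 12.10 and 12.20 at day 3, 11.79 at day 4 and 11.64 at day 6. On the Nipped-B arrays it was at 11.78 and 11.89, then 11.63 and 12.05, and on the mock arrays at 11.21 and 11.24, then 10.51 and 10.65. All 8 knockdown arrays were above all 4 mock arrays. The Rad21 difference from mock was 1.03 ± 0.09 (log2, SE, limma adjusted p = 8.4e-05), which is 2.04-fold, and that of Nipped-B 0.93 ± 0.09 (adjusted p = 0.00024), which is 1.91-fold.

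Nrt encodes Neurotactin, a transmembrane protein of neurons and epithelia whose ligand is the secreted immunoglobulin protein Amalgam. Its values on the Rad21 arrays were 10.17 and 10.34 at day 3, 10.39 at day 4 and 10.63 at day 6. They were 9.86, 10.31, 9.61 and 10.36 in the same order on the Nipped-B arrays, and 9.73, 9.91, 8.51 and 9.01 on the mock arrays. All Rad21 arrays were above all mock arrays, while the Nipped-B arrays of days 3 and 4 overlapped the mock arrays of day 3. Within each day the knockdown array was higher in 4 of 4 pairs for both. Nrt rose by 1.09 ± 0.19 in Rad21 cells (adjusted p = 0.0017), and in Nipped-B cells the rise was 0.74 ± 0.19 (adjusted p = 0.015). The probes of this set may match other transcripts too, by the design name of the set.

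CadN encodes N-cadherin, the main classical cadherin of fly neurons. The Rad21 arrays stood at 10.80, 10.91, 10.80 and 11.09 (replicates 1 to 4), the Nipped-B arrays at 10.46, 10.87, 10.52 and 11.48, and the mock arrays at 10.25, 10.31, 9.76 and 10.08. Neither knockdown group overlapped mock, though the lowest Nipped-B array was close to the highest mock array. The differences were 0.80 ± 0.20 with Rad21 RNAi (adjusted p = 0.011) and 0.74 ± 0.20 with Nipped-B RNAi (adjusted p = 0.019). Groups without any overlap were thus seen for 3 of 9 member probe sets with Rad21 RNAi (Fas1, Nrt, CadN) and for 2 of 9 with Nipped-B RNAi (Fas1, CadN), all higher than mock. Among all tested probe sets 14.5% were higher without overlap and 15.2% lower with Rad21 RNAi, and 10.8% and 9.77% with Nipped-B RNAi.

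shg encodes E-cadherin, which joins epithelial cells at adherens junctions and is also used by neuroblasts and glia. Rad21 arrays were at 5.56 and 5.72 at day 3, 5.44 at day 4 and 5.91 at day 6, and Nipped-B arrays at 5.67 and 5.11, then 4.71 and 5.37. Mock arrays were at 6.67 and 6.79 at day 3, and then at 5.32 and 5.02. At day 3 all knockdown arrays were below both mock arrays. At days 4 and 6 both Rad21 arrays were above both mock arrays, and the Nipped-B arrays overlapped mock. Averaged over the time classes, shg fell by 0.73 ± 0.19 in Nipped-B cells (adjusted p = 0.018), while its difference with Rad21 RNAi was -0.29 ± 0.19 (adjusted p = 0.25). With treatment as the only term of the model the Nipped-B call was lost (adjusted p = 0.20).

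Ten-m encodes a teneurin, a large receptor known from matching partner neurons at synapses. Rad21 arrays were at 12.90, 12.76, 12.31 and 12.63 (replicates 1 to 4), Nipped-B arrays at 12.72, 12.85, 12.31 and 12.71, and mock arrays at 12.45, 12.49, 11.94 and 12.46. The groups overlapped, and the day 4 array was the lowest in each, but the knockdown array of a replicate was above its mock array in 4 of 4 pairs for both. Both differences were 0.31 ± 0.13, with an adjusted p of 0.083 for Rad21 and 0.094 for Nipped-B, a rise of 1.24-fold. Both calls were lost at a threshold of 0.05, and each in 8 of the 12 fits that left out 1 array, with an adjusted p of up to 0.24 for Rad21 and 0.25 for Nipped-B. Without mock replicate 3 the differences were 0.18 and 0.18.

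Fas2, the fly relative of the vertebrate neural cell adhesion molecule NCAM, binds itself and bundles motor axons. Its probe set is 1624774_a_at, to which the annotation of the array used here gives no gene. The name was taken from the list of gene names given with the study. Rad21 arrays were at 11.37, 11.29, 11.08 and 11.46 (replicates 1 to 4), Nipped-B arrays at 11.25, 11.11, 10.35 and 11.44, and mock arrays at 11.26, 10.92, 10.32 and 10.73. The 3 groups overlapped. Fas2 rose by 0.50 ± 0.22 with Rad21 RNAi, at the edge of the threshold (adjusted p = 0.099), and lost that call in 9 of the 12 fits without 1 array (adjusted p of up to 0.25). Its Nipped-B difference was 0.23 ± 0.22 (adjusted p = 0.45).

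Nrg encodes Neuroglian, the fly member of the L1 family, which binds itself outside the cell and ankyrin inside. Its probe set 1636146_at was at 11.76, 11.69, 11.39 and 11.74 on the Rad21 arrays, 11.69, 11.66, 10.81 and 11.77 on the Nipped-B arrays, and 11.36, 11.28, 10.86 and 11.40 on the mock arrays. The probe set 1637463_a_at was at 10.75, 10.53, 10.17 and 10.57 on the Rad21 arrays, 10.60, 10.56, 9.55 and 10.61 on the Nipped-B arrays, and 10.49, 10.18, 9.69 and 10.34 on the mock arrays. Both sets ran in parallel over the arrays, and in both the day 4 array was the lowest of each treatment. The differences did not pass: 0.42 ± 0.20 and 0.33 ± 0.23 with Rad21 RNAi (adjusted p = 0.12 and 0.28), and 0.26 ± 0.20 and 0.16 ± 0.23 with Nipped-B RNAi (adjusted p = 0.35 and 0.64). The Rad21 array of each replicate was above its mock array in 4 of 4 pairs in both sets. The remaining Nrg probe set, 1626001_at, was under log2 4 on all 12 arrays.

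Arrays with the same replicate number deviated from their group means together, and with the replicate number as a block the calls of some members changed. The values stay the same, only the errors shrink. With the block both Nrg probe sets rose with Rad21 RNAi (adjusted p = 0.0040 and 0.021) and 1636146_at rose with Nipped-B RNAi (adjusted p = 0.039). This made 7 of 9 member probe sets higher with Rad21 RNAi, beside 35.8% of all tested, and 5 of 9 with Nipped-B RNAi, beside 34.1%. No member lost its call.

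kirre encodes an immunoglobulin protein of muscle founder cells, where it draws in the cells to be fused, and it is also used in the optic lobe. Its probe set 1633888_s_at was at 11.36, 11.33, 11.15 and 11.56 on the Rad21 arrays, 11.61, 11.63, 11.10 and 11.72 on the Nipped-B arrays, and 11.92, 11.40, 10.65 and 11.66 on the mock arrays. The groups overlapped fully, and the differences from mock were -0.06 ± 0.23 with Rad21 RNAi (adjusted p = 0.86) and 0.11 ± 0.23 with Nipped-B RNAi (adjusted p = 0.75). The other kirre probe set, 1633514_at, was between 2.38 and 2.39 on all arrays. The kirre sets thus disagree on whether the gene gives signal at all, and the brighter one may match other transcripts, by the design name of the set. Con, which encodes the leucine-rich repeat protein Connectin of a group of muscles and their motor neurons, was between 2.50 and 2.53 on all 12 arrays, which is at background.

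**Figure D2:**
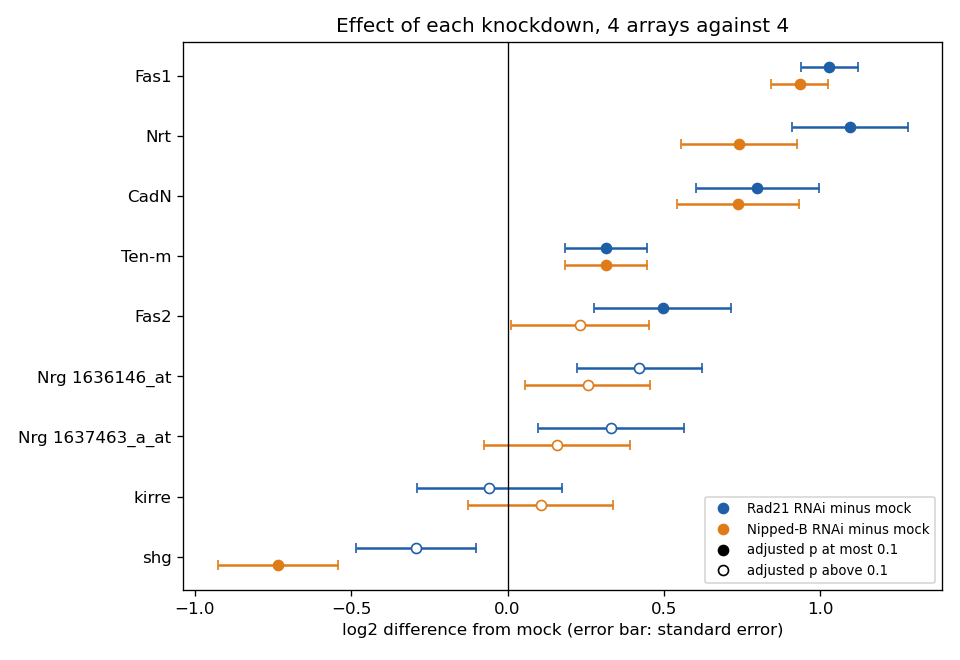
Log2 difference of Rad21 RNAi and of Nipped-B RNAi from mock for the 9 tested member probe sets, as the mean over day 3 and days 4 and 6, with the standard error of the fit over 12 arrays. Filled points have an adjusted p of at most 0.1, and these lie right of 0 except for shg with Nipped-B RNAi at -0.73.

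The response to Rad21 RNAi was set against that to Nipped-B RNAi directly. None of the 9 member probe sets passed, with limma adjusted p of 0.92 to 1.00, where 0.0952% of all tested probe sets did. At an unadjusted p under 0.05, 1 of the 9 differed, beside 5.24% of all tested probe sets. It was shg, which was 0.44 ± 0.19 higher in Rad21 cells than in Nipped-B cells. The next was Nrt, 0.35 ± 0.19 higher in Rad21 cells. Fas1, CadN and Ten-m differed by 0.09 ± 0.09, 0.06 ± 0.20 and 0.00 ± 0.13. These errors leave room for differences of the size of the standard errors and more, so the responses are not shown to be alike.

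Levels of several members differed between day 3 and days 4 and 6 in mock cells, where day and harvest cannot be told apart. In mock cells Fas1 fell by 0.65 ± 0.13 at days 4 and 6 relative to day 3 (adjusted p = 0.0092), Nrt by 1.06 ± 0.26 (adjusted p = 0.020) and shg by 1.56 ± 0.27 (adjusted p = 0.0055). These were 3 of 9 member probe sets lower with time and 0 higher, beside 20.8% of all tested that were lower and 14.4% that were higher. The other 6 had differences of -0.19 to -0.57 and did not pass. The median of the 9 was -0.51, against -0.07 over all tested. Without mock replicate 2 the fall of Nrt did not pass (adjusted p = 0.11).

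**Figure D3:**
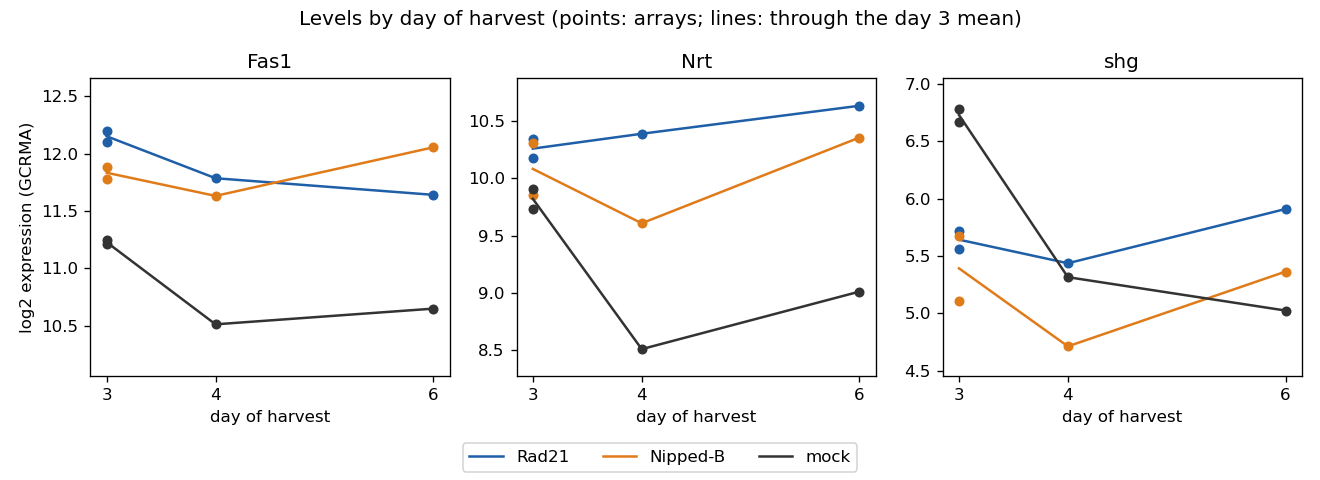
Log2 expression (GCRMA) of Fas1, Nrt and shg by day of harvest for Rad21, Nipped-B and mock RNAi, each point an array and each line drawn through the mean of the day 3 arrays. Mock levels of all 3 genes are lower at days 4 and 6 than at day 3, while the Rad21 line of Nrt is highest at day 6, at 10.63.

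At day 3, with both arrays of a treatment on that day, Fas1 was the only member that rose, by 0.92 ± 0.13 with Rad21 RNAi (adjusted p = 0.0017) and 0.61 ± 0.13 with Nipped-B RNAi (adjusted p = 0.030). shg was the only one that fell, by 1.09 ± 0.27 in Rad21 cells (adjusted p = 0.021) and by 1.34 ± 0.27 in Nipped-B cells (adjusted p = 0.025). All tested probe sets gave 14.9% higher and 15.8% lower for Rad21 at day 3, and 4.94% and 6.93% for Nipped-B. These calls rest on 2 arrays against 2, and shg lost its Rad21 call without Rad21 replicate 1 (adjusted p = 0.12), while Fas1 and shg lost their Nipped-B calls without mock replicate 1, mock replicate 2 or Nipped-B replicate 2 (adjusted p of up to 0.23 and 0.22). With the replicate block, 5 members were higher in Rad21 cells at day 3, Fas1, CadN, Nrt, Ten-m and Nrg 1636146_at (adjusted p of 0.00066 to 0.033), beside 24.4% of all. With the same block Ten-m and Nrg 1636146_at joined Fas1 in Nipped-B cells (adjusted p = 0.022 and 0.083), beside 13.9% of all.

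At days 4 and 6, with 1 array a day, Nrt was higher by 1.75 ± 0.26 in Rad21 cells (adjusted p = 0.0018), which is 3.36-fold, and by 1.22 ± 0.26 in Nipped-B cells (adjusted p = 0.0092). CadN was higher by 1.03 ± 0.28 and 1.09 ± 0.28 in Rad21 and Nipped-B cells (adjusted p = 0.023 and 0.019), and Fas1 by 1.13 ± 0.13 and 1.26 ± 0.13 (adjusted p = 0.00059 and 0.00051). Fas2 was higher by 0.75 ± 0.31 in Rad21 cells (adjusted p = 0.096), a call lost in 10 of the 12 fits without 1 array (up to 0.35). CadN lost its Rad21 call without Rad21 replicate 4 (adjusted p = 0.12). Its Nipped-B difference was 0.60 without Nipped-B replicate 4, the day 6 array at 11.48, and 1.57 without replicate 3 (adjusted p = 0.067 and 0.0018). That made 4 of 9 higher and 0 lower with Rad21 RNAi, beside 21.5% and 20% of all tested, and 3 of 9 higher and 0 lower with Nipped-B RNAi, beside 22.5% and 17.5%. In this window shg differed from mock by 0.50 ± 0.27 in Rad21 cells (adjusted p = 0.19) and by -0.13 ± 0.27 in Nipped-B cells (adjusted p = 0.74). With the replicate block 7 were higher in Rad21 cells, with Ten-m and both Nrg sets added (adjusted p of 0.017 to 0.067), beside 31.8% of all, and 5 in Nipped-B cells, with Ten-m and Fas2 added (adjusted p = 0.0093 and 0.086), beside 33% of all.

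The change of each knockdown effect between the time classes was tested itself. No member passed, where 1.24% of all tested probe sets did for Rad21 and 0.34% for Nipped-B. The largest changes were those of shg, 1.59 ± 0.38 for Rad21 (adjusted p = 0.14) and 1.21 ± 0.38 for Nipped-B (adjusted p = 0.35), and of Nrt, 1.31 ± 0.37 (adjusted p = 0.19) and 0.96 ± 0.37 (adjusted p = 0.44). At an unadjusted p under 0.05 there were 2 members for Rad21, shg and Nrt, beside 14% of all tested, and 3 for Nipped-B, with Fas1 added at 0.66 ± 0.18, beside 9.86% of all. With the replicate block Nrt (adjusted p = 0.014) and shg (adjusted p = 0.059) passed for Rad21, beside 4.68% of all that were higher later, and Nrt (adjusted p = 0.043) and Fas1 (adjusted p = 0.099) for Nipped-B, beside 1.7%. For Nrt the mean level in Rad21 cells was 10.51 at days 4 and 6 and 10.26 at day 3, and in mock cells 8.76 and 9.82. For shg it was 5.67 and 5.64 in Rad21 cells, and 5.17 and 6.73 in mock cells.

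Over the 12 arrays the members moved in related ways, which is a description only, since the arrays share treatment, day and harvest. The Nrg sets had a Pearson r of 0.97 with each other, and of 0.93 and 0.92 with Fas2. Nrt, CadN and Fas1 had r of 0.86 to 0.89 among themselves, and shg had r of -0.10 to 0.42 with every other set. In 5 of 9 sets, Fas2, both of Nrg, Ten-m and kirre, the day 4 array was the lowest of 4 in Rad21, in Nipped-B and in mock cells alike, beside 11.1% of all tested probe sets. This count was chosen after the values were seen. Without the Nipped-B array of day 4 alone, 8 of the 9 passed with Nipped-B RNAi, all but kirre. Of these 7 rose, beside 25.6% of all, and shg fell, beside 21.7%. Without the day 4 arrays of all treatments 7 members rose with Nipped-B RNAi, all but kirre and shg, beside 33.7% of all. Without the day 6 arrays the same 7 rose with Rad21 RNAi, beside 29.9% of all, and shg fell, beside 27.2%.

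Among 6392 probe sets of 1 gene outside the list, those most like Fas1 over the 12 arrays were Gdap2 (r = 0.99, Spearman rho = 0.97), msps, a microtubule polymerase of the spindle and axon (r = 0.98, rho = 0.94), and Stim, a calcium sensor of the endoplasmic reticulum (r = 0.98, rho = 0.92). Those most like shg were 18w, a Toll family receptor (r = 0.93, rho = 0.87), Samuel (r = 0.92, rho = 0.88) and Rrp6, an exosome nuclease (r = 0.92, rho = 0.72).

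Other adhesion genes were counted from lists chosen by family, with 1 probe set for each gene. By the same count 5 of the 8 tested members rose and 0 fell with Rad21 RNAi, and 4 rose and 1 fell with Nipped-B RNAi. Of 14 other cadherin genes 10 had a probe set and 4 were tested. Cad87A rose by 0.56 ± 0.09 with Rad21 RNAi and 0.38 ± 0.09 with Nipped-B RNAi, kug, which orients migrating follicle cells, by 0.39 ± 0.14 and 0.41 ± 0.14, and the other 2 did not pass in either. CadN2, ds and stan were under log2 4 on all arrays.

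Of 17 other immunoglobulin proteins 8 were tested, of which 5 rose and 1 fell with Rad21 RNAi, and 5 rose and 0 fell with Nipped-B RNAi. Ama, which encodes Amalgam, the ligand of Neurotactin, rose by 1.42 ± 0.24 and 0.95 ± 0.24 (adjusted p = 0.0016 and 0.014). Its means were 5.51 in Rad21 cells, 5.04 in Nipped-B cells and 4.09 in mock cells, so mock cells were close to the limit of log2 4. The probes of the Ama set may match other transcripts too, by the design name of the set. Dscam4, of the family of Dscam receptors, rose by 1.23 ± 0.21 and 1.01 ± 0.21, and Cont, a contactin of septate junctions, by 0.29 ± 0.06 and 0.31 ± 0.06. The kirre ligands sns and hbs were under log2 4 on all arrays. The median over the 8 was 0.29 with Rad21 RNAi and 0.30 with Nipped-B RNAi.

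Of 15 leucine-rich repeat, teneurin and neurexin or neuroligin genes 6 were tested, of which 2 rose and 2 fell with Rad21 RNAi, and 2 rose and 1 fell with Nipped-B RNAi. Ten-a, the other fly teneurin and a partner of Ten-m, rose by 0.71 ± 0.14 and 0.61 ± 0.14. Nrx-IV, the neurexin of septate junctions, rose by 0.66 ± 0.11 and 0.56 ± 0.11. Gli, a protein of tricellular junctions with the same kind of domain as Neurotactin, fell by 1.46 ± 0.19 and by 1.25 ± 0.19. All 4 neuroligin genes and Nrx-1 were under log2 4 on all arrays. The median over the 6 was 0.08 with Rad21 RNAi and -0.09 with Nipped-B RNAi.

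The partners of adhesion proteins inside the cell gave signal for the most part, with 10 of 12 genes tested. With Rad21 RNAi 7 of the 10 rose and 1 fell, and with Nipped-B RNAi 7 rose and 0 fell, with medians of 0.51 and 0.36. vari, a scaffold of septate junctions, rose by 1.17 ± 0.14 and 0.90 ± 0.14, shot, which links actin to microtubules in growing axons, by 0.76 ± 0.07 and 0.56 ± 0.07, and Ank, the ankyrin that can hold Neuroglian, by 0.55 ± 0.08 and 0.47 ± 0.08. These counts stand beside the same shares of all tested probe sets as those of the members.

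**Figure D4:**
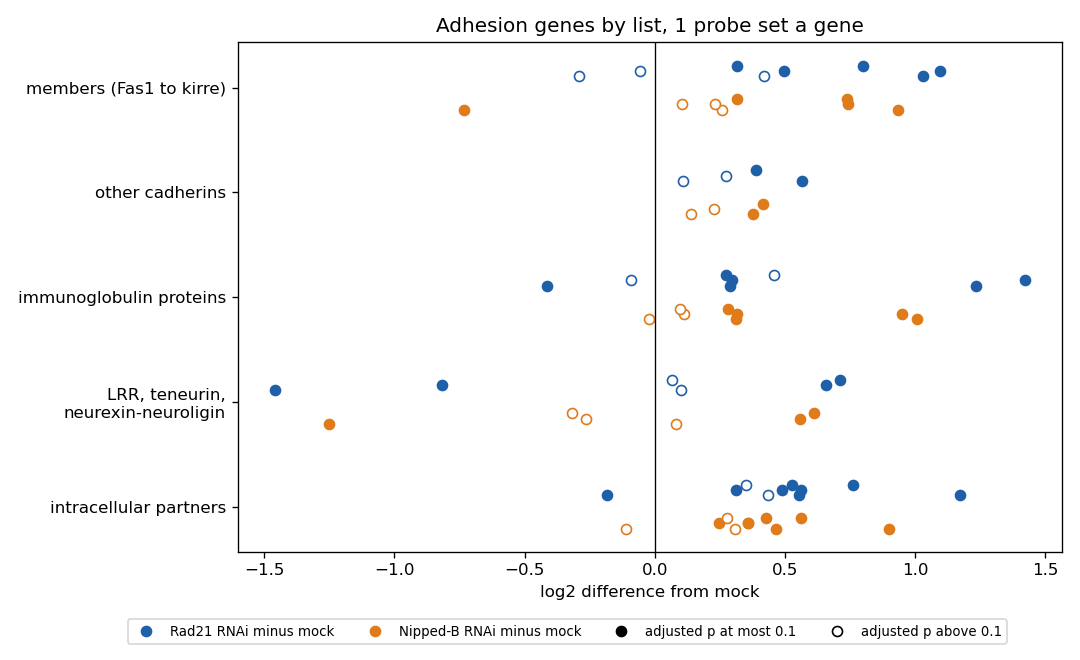
Log2 difference from mock of each tested gene of the member list and of 4 other adhesion lists, Rad21 RNAi above Nipped-B RNAi in each row, with filled points for an adjusted p of at most 0.1. Most filled points lie right of 0, and Gli lies farthest left, at -1.46 and -1.25.

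Markers of other cell types were measured on the same arrays. Their counts stand beside the shares of all tested probe sets. These were 27.3% higher and 24.1% lower with Rad21 RNAi, and 24.4% and 19.9% with Nipped-B RNAi. All 3 tested haemocyte markers rose with both knockdowns, srp by 0.48 ± 0.07 and 0.43 ± 0.07, ush by 0.48 ± 0.08 and 0.48 ± 0.08, and Pxn by 0.44 ± 0.13 and 0.34 ± 0.13 with Rad21 and Nipped-B RNAi. The summed level of the 9 haemocyte markers is mostly that of srp and ush, with means of 12.81 and 11.51 in mock cells. This sum ran from log2 13.72 to 13.97 on Rad21 arrays, 13.63 to 13.99 on Nipped-B arrays and 13.19 to 13.59 on mock arrays. The other 6, Hml, NimC1, He, lz, PPO1 and PPO2, which define blood cells more strictly, were under log2 4 on all arrays. Of 8 glia markers with a probe set 5 were tested, of which 1 rose and 1 fell with each knockdown. The median over the 5 was -0.03 in both comparisons, and repo, moody and loco did not pass in either. nrv2 rose by 0.50 ± 0.12 and 0.48 ± 0.12. wrapper, an adhesion protein of midline glia, averaged 2.74 in Rad21 cells and 2.68 in Nipped-B cells, which is at background, against 4.90 in mock cells. It fell with both, but it was tested through mock arrays alone, so the filter left room for a fall only. The size of the fall has only a lower bound. The summed glia level was 13.86 to 13.95 on Rad21 arrays, 13.81 to 14.11 on Nipped-B arrays and 13.65 to 13.91 on mock arrays. The 4 muscle markers with a probe set were under log2 4 on all arrays. Of 5 tracheal and epithelial markers with a probe set 3 were tested, of which 2 fell and 0 rose with Rad21 RNAi, and 1 fell and 0 rose with Nipped-B RNAi. bnl fell with both, at 2.97 in Rad21 cells and 2.99 in Nipped-B cells, near background, against 3.92 in mock cells. It was tested through mock arrays alone, so the filter left room for a fall only. bnl encodes a secreted ligand and does not mark tracheal cells themselves, so these counts do not describe tracheal identity. crb differed by -0.52 ± 0.18 (adjusted p = 0.048) and -0.17 ± 0.18 (adjusted p = 0.51) with Rad21 and Nipped-B RNAi, and sdt by 0.33 ± 0.18 and 0.20 ± 0.18, which did not pass. Both were added after their values were seen. Of 5 markers of the germline or of somatic gonad cells with a probe set, vas, bam, piwi and tj were under log2 4 on all arrays. The 1 tested, aub, fell by 2.37 ± 0.25 and fell by 1.97 ± 0.25. The part of any of these in the changes of the adhesion genes was not tested.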

How the data were processed

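The authors deposited 1 table of log2 expression values, computed with GCRMA (version not given in the sources used here) from 12 Affymetrix Drosophila Genome 2.0 arrays, and a list of dsRNA primers that was not used. Of 18952 probe sets, 183 controls were left out. Gene names came from the platform annotation, matched to RefSeq genes of Release 6 by gene identifier: 13646 probe sets had 1 gene, 402 several and 4721 none. Fas2 was named from the study's own list of probe set names, which matched the annotation for 1358 of the 1408 names compared. In other lists the probe set of highest mean stood for a gene. The sets used for Ama, Gli, vari, Ank and nrv2 may match other transcripts too, by their design names.

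Differences were fitted with limma 3.58.1 in R 4.3.3, with a mean for each of 3 treatments in 2 time classes (day 3, and days 4 and 6), after the study's balanced analysis of the same factors, then eBayes with a variance trend. The Benjamini-Hochberg adjustment ran over all 7350 tested probe sets, with calls at an adjusted p up to 0.1 as in the study. The effect of a knockdown is the mean of its differences from mock in both time classes. The fit was tested on simulated data. Replicate numbers were taken to pair the arrays. The deviations of same-numbered arrays from their treatment means correlated at 0.49 to 0.79, but these include the time difference that all treatments share. Those from the means of treatment and time class correlated at 0.36 to 0.66, and at 0.36 to 0.50 at day 3. With 2 arrays in each class, both numbers of a class give the same value. At days 4 and 6 the number is also the day, so these correlations cannot show pairing there. Nothing says that arrays of a number share a culture.

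The alternatives were no filter or a limit of log2 5, no variance trend, a plain linear model, median centring, the replicate block, a threshold of 0.05, values under 4 set to 4, treatment alone and leaving out each array. The effects within a time class and the fits without the arrays of a day were added after the data were seen. Named genes are all member probe sets, up to 3 genes with the largest rise and 3 with the largest fall in each other list among those called with both knockdowns, and the 3 probe sets most like the member with the largest rise and that with the largest fall. The members and lists were chosen with earlier results of these data known. The number of arrays limits the precision, and the labels call all arrays biological replicates. Tables and figures were made with matplotlib 3.10.9, scipy 1.17.1, numpy 2.4.6 and pandas 2.3.3 in Python 3.11.15.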

Additional observations from a re-analysis of the deposited data

Results flagged for a closer look

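Of 36 sets of 4 arrays, 1 for each member probe set and treatment, 4 had an array far from the other 3. The sets share the same 12 arrays and each mixes days of harvest, so this count is not set against a rate by chance. Nrg 1636146_at was at 10.81 and Nrg 1637463_a_at at 9.55 on the Nipped-B array of day 4, both far below the other Nipped-B arrays. These probe sets measure the same gene. Ten-m was at 11.94 on the mock array of day 4, far below the other mock arrays. Nrg 1626001_at was at 3.38 on the first Rad21 array of day 3 and at 2.54 to 2.60 on the other Rad21 arrays, all under the limit of log2 4.

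The effect of Rad21 RNAi on shg had opposite signs in the time classes, and both arrays of each class lay on the same side of their mock arrays. The change between the classes was 1.59 ± 0.38 (log2, SE, limma adjusted p = 0.14, and 0.059 with the replicate block). For the replicate pairs the Rad21 minus mock difference was -1.11 and -1.06 at day 3, 0.12 at day 4 and 0.89 at day 6.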

How the results depend on the processing

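The calls of Fas1, Nrt and CadN with both knockdowns, and of shg with Nipped-B RNAi, passed in all 12 fits that left out 1 array. Those of Fas2 and Ten-m were lost in most. The shg call was also lost with treatment as the only term and at days 4 and 6 alone, where the difference was -0.13. With Rad21 RNAi 5 member probe sets were called over both time classes. There were 3 without a filter, with the plain linear model, at a threshold of 0.05 and with treatment as the only term, 8 without the day 6 arrays, and 2 at day 3 alone. With Nipped-B RNAi 5 were called, 3 with treatment as the only term, 8 without the day 4 arrays, 2 at day 3 alone and 3 at days 4 and 6 alone. Where the arrays of a day were left out, the remaining later array was assumed to vary like the day 3 arrays. For each knockdown, leaving out the other later day moved the count of calls less than the fit given here. With Nipped-B RNAi shg stayed lower than mock whether day 4 or day 6 was left out. The replicate block gave 6 calls in place of 2 for Rad21 at day 3, 7 in place of 4 at days 4 and 6, 4 in place of 2 for Nipped-B at day 3, 5 in place of 3 at days 4 and 6, and 2 in place of 0 for the time change of each. It changed no call of a member other than those given in the report, and no blocked fit exists for mock cells over time, whose replicate numbers are not shared between days.

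Leaving out 1 array at a time, the calls ran from 3 to 6 for Rad21 and 4 to 8 for Nipped-B, from 1 to 3 and 0 to 2 at day 3, from 2 to 5 and 3 to 6 at days 4 and 6, and from 0 to 2 for each time change. They ran from 2 to 5 in mock cells over time and stayed at 0 between Rad21 and Nipped-B.

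Changes of sign were limited to differences that had not passed in the main fit. shg with Rad21 RNAi was -0.29 over both time classes and 0.50 at days 4 and 6 alone. Its difference of -1.09 at day 3 had passed. kirre with Rad21 RNAi was 0.20 at days 4 and 6 alone and 0.089 without the day 6 arrays, and with Nipped-B RNAi -0.044 at day 3 alone. Ten-m had a Nipped-B time change of -0.050 with centred arrays. Leaving out 1 array, the Rad21 minus Nipped-B difference ran from -0.18 to 0.30 for CadN, -0.012 to 0.20 for Fas1, -0.0081 to 0.54 for Fas2, -0.078 to 0.41 and -0.092 to 0.44 for Nrg (1636146_at and 1637463_a_at, in this order below too) and -0.10 to 0.10 for Ten-m. The Nipped-B difference from mock ran from -0.041 to 0.50 for Fas2, -0.11 to 0.42 for Nrg 1637463_a_at and -0.14 to 0.36 for kirre, and the Rad21 difference of kirre from -0.31 to 0.19. At day 3 the Nipped-B difference ran from -0.081 to 0.26 for Fas2 and -0.30 to 0.22 for kirre. At days 4 and 6 it ran from -0.17 to 0.92 for Fas2, -0.32 to 0.64 and -0.47 to 0.60 for Nrg, -0.25 to 0.76 for kirre and -0.46 to 0.19 for shg, and the Rad21 difference of kirre from -0.31 to 0.70. The Nipped-B time change ran from -0.26 to 0.83 for Fas2, -0.68 to 0.29 and -0.72 to 0.35 for Nrg, -0.26 to 0.26 for Ten-m and -0.20 to 0.80 for kirre. The Rad21 time change ran from -0.24 to 0.30 and -0.27 to 0.37 for Nrg and -0.35 to 0.17 for Ten-m, and the change in mock cells from -0.46 to 0.075 and -0.64 to 0.0029 for Nrg. The cause of these changes was not tested. Signal near background limits Ama, shg, wrapper and bnl, and Con, Nrg 1626001_at and kirre 1633514_at give no level to compare.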
